A study of Mus musculus with 4 samples.

Results

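Among 6784 cell barcodes of 2 transplanted mouse tracheas, 218 epithelial cells carried high counts of the chemokine genes Ccl20 and Ccl9. They were chosen by measured counts, as barcodes with at least 500 genes, at least 5 unique molecular identifiers (UMIs) of Ccl20 and Ccl9 together, at least 1 UMI of the epithelial gene Epcam and 0 of the leukocyte gene Ptprc. The summed ciliated-cell genes Foxj1, Ccdc153, Dynlrb2 and Fam183b had to be below 20 UMIs per 10000. The comparison cells were the 5158 other barcodes that met all these conditions except the chemokine count, each compared within its own library. Of the 218 cells, 48 had a Ccl9 UMI and 170 had none, and the microfold regulators Spib and Sox8 were concentrated in the 48 in all 4 libraries, whereas the uptake receptor gene Gp2 was not. Spib had a UMI in 37 of those 48 cells, in 4 of the 170 and in 34 of the 5158 other cells. The name microfold-like is therefore kept for the cells with Ccl9 as a class, although not each of them had Spib. Spib was also highest where the summed chemokine UMIs were highest. Those counts chose the cells and overlap with the division by Ccl9, so this is no separate support for the name. The remaining 170 are called here Ccl20 cells without Ccl9, although some of the marker genes were raised in part of them too. This division was made after the values of single cells had been seen.

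Microfold cells, or M cells, are epithelial cells that take up particles and microbes from the lumen and pass them to immune cells lying beneath. In the gut they form over lymphoid follicles when the cytokine RANKL, encoded by Tnfsf11, binds its receptor RANK, encoded by Tnfrsf11a, and activates NF-kappaB. The transcription factors Spib and Sox8 drive their maturation, and Ccl20 and Ccl9 are chemokines of this epithelium that attract lymphocytes and dendritic cells. Ccl20 is also a target of NF-kappaB in airway epithelium in general.

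All recipients were adult wild type mice whose trachea had received 2% polidocanol, a detergent that strips the epithelium, and 5 hours later a transplant of 6000000 cells. The iBC recipient (strain label 129 X1/S1) received induced basal cells and was examined after 192 days. The primary BC recipient (C57BL/6) received primary basal cells and was examined after 69 days. Live Calcein Blue-positive cells of each trachea were sorted into GFP-positive, donor-derived and GFP-negative, endogenous cells, and 1 library of each was sequenced on the 10x Chromium system. With 1 library from 1 animal in each of the 4 groups, no difference was tested and no p-value is given. Transplant, strain, days and animal cannot be told apart between the recipients, and the 95% intervals below cover counting error only. The libraries held 21504563 to 26625123 UMIs. An EGFP UMI was found in 25 of the 47 chemokine cells and 571 of the 1179 other cells of the iBC donor-derived library, in 37 of 37 and 1577 of 1603 of the primary donor-derived library, and in 0 of 91 and 0 of 43 endogenous chemokine cells. Of the 2 barcodes shared by 2 libraries, none was a chemokine cell.

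The chemokine cells were present in every library. They were 47 of 1226 Epcam-positive non-ciliated cells in the iBC donor-derived library, a share of 3.83% (exact Clopper-Pearson 95% interval 2.83 to 5.06). The endogenous library of the same animal held the largest number, 91 of 1408 (6.46%). The primary BC recipient had 37 of 1640 donor-derived cells (2.26%) and 43 of 1102 endogenous cells (3.90%). The division by Ccl9 went the other way. Cells with Ccl9 made up 30 of 1226 cells (2.45%, 95% interval 1.66 to 3.47) in the iBC donor-derived library, against 7 of 1408 (0.497%, 0.20 to 1.02), 7 of 1640 (0.427%, 0.172 to 0.877) and 4 of 1102 (0.363%, 0.099 to 0.927) in the iBC endogenous, primary donor-derived and primary endogenous libraries. Ccl20 cells without Ccl9 numbered 17, 84, 30 and 39 in the same order, so they were the majority in 3 of the 4 libraries. A single Ccl9 UMI placed 3, 2, 2 and 0 of the cells in the class with Ccl9. Among the other cells a Ccl9 UMI was found in 13 of 1179, 4 of 1317, 19 of 1603 and 15 of 1059. Scrublet called 3 of the 218 cells doublets, all in the iBC endogenous library, 1 among its 7 cells with Ccl9 and 2 among its 84 without.

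**Figure D1:**
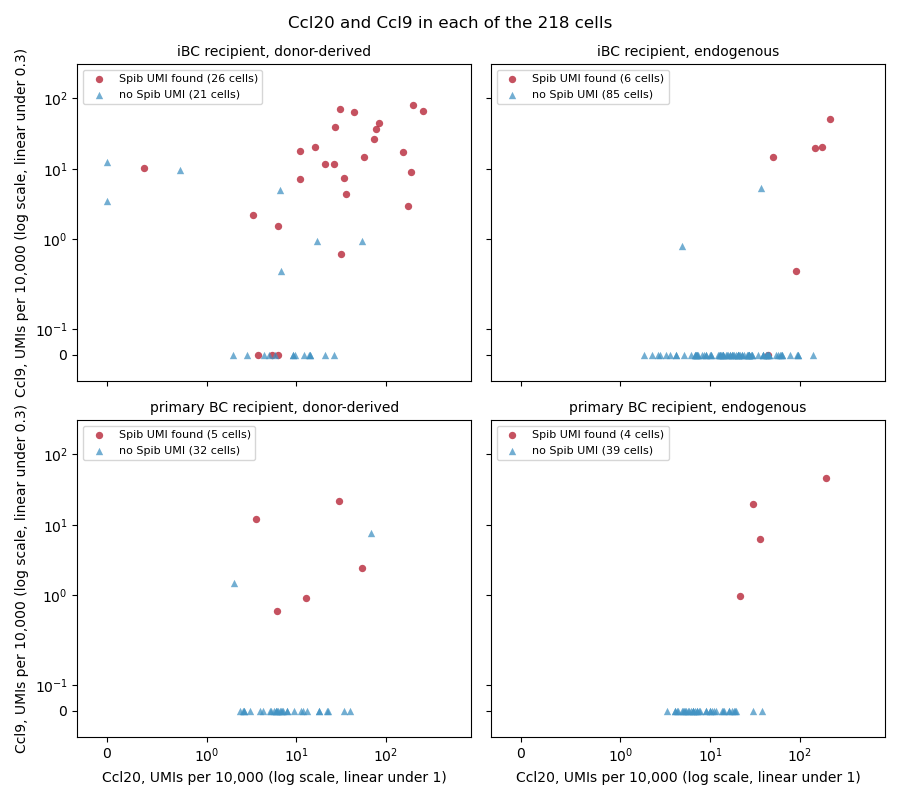
Each point is 1 of the 218 cells, with Ccl20 on the horizontal and Ccl9 on the vertical axis in UMIs per 10000 (log scales, linear near 0), 1 panel per library. Red circles had a Spib UMI and blue triangles had none: most circles lie above the row of cells without Ccl9, and only 4 circles lie on it.

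The amounts of the chemokines varied widely between single cells. In the 47 iBC donor-derived cells Ccl20 had a lowest, median and highest level of 0, 14.1 and 260.1 UMIs per 10000, and Ccl9 of 0, 3.01 and 81. In the 91 iBC endogenous cells Ccl20 had 1.82, 20.4 and 221 and Ccl9 0, 0 and 51. In the primary BC recipient Ccl20 had 2.02, 6.72 and 67.6 in 37 donor-derived cells and 3.32, 9.03 and 197 in 43 endogenous cells. The median cell thus carried no Ccl9 in 3 libraries, and a median of 3.01 in the fourth. Both chemokines were found together in 46 cells, and 2 iBC donor-derived cells had Ccl9 alone. Close to the threshold, the 7 iBC donor-derived cells with 5 to 9 chemokine UMIs had 136 CPM (counts per 1000000 summed UMIs) of Tnfaip2 and 25.5 CPM of Spib, and the 5 cells with 3 to 4 had 210 and 0 CPM. In the iBC endogenous library the same bands, of 24 and 25 cells, had 91.5 and 118 CPM of Tnfaip2 and 0 CPM of Spib.

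The promoters of both chemokine genes and of Spib are shown because the first is a textbook NF-kappaB target and these genes were high in the same cells. Each run holds 250 bases upstream of the RefSeq start in build GRCm38.p6, 5′ to 3′ on the strand of the gene, with capitals marking matches to the NF-kappaB-type pattern GGGNNNNNCC searched on both strands, overlapping matches included. The windows are chr1:83116516-83116765, + strand (Ccl20), chr11:83578637-83578886, - strand (Ccl9) and chr7:44532072-44532321, - strand (Spib).
Ccl20: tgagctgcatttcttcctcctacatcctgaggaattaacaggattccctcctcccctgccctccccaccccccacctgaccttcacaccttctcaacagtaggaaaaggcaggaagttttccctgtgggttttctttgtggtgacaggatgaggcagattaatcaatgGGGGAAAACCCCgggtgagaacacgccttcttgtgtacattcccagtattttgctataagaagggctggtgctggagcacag
Ccl9: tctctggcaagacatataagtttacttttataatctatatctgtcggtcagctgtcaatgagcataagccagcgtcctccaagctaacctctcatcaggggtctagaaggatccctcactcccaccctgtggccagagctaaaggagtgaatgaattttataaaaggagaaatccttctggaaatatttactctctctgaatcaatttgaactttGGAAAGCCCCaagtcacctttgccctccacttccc
Spib: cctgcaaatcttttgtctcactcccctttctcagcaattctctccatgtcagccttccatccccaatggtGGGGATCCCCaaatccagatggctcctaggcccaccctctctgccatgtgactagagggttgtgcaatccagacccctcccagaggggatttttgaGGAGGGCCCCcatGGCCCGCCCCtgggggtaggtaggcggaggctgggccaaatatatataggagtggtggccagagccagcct
The pattern occurred 3 times in the Ccl20 window, at overlapping positions within 1 run of letters, 1 time in the Ccl9 window and 3 times in the Spib window. Of 32851 mouse promoter windows of this length 45.8% held it, so its presence does not set these genes apart. GAGGAAGT, a pattern of the PU.1 and Spi-B family, was found in none of the 3 windows and in 2.44% of all windows. These matches describe letters and not binding.

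Spib and Sox8, the maturation factors of microfold cells, were concentrated in the cells with Ccl9 in all 4 libraries, though not found in each cell. The 2 iBC donor-derived cells with Ccl9 alone had no UMI of either. Spib (chr7:44525993-44532071, GRCm38) had 1144, 1877, 338 and 1349.8 CPM in the cells with Ccl9 of the iBC donor-derived, iBC endogenous, primary donor-derived and primary endogenous libraries, which is the order kept below. The Ccl20 cells without Ccl9 had 22.9, 2.31, 0 and 0 CPM, and the other cells 0.794, 0.711, 0.581 and 1.78 CPM. Spib was thus 1441-fold (95% interval 836 to 2720.4) higher with Ccl9 in the iBC donor-derived library and 759-fold (95% interval 514 to 1149.7) higher in the primary endogenous library. Single cells carried it in 23 of 30, 5 of 7, 5 of 7 and 4 of 4 cells with Ccl9. Without Ccl9 it was found in 3 of 17, 1 of 84, 0 of 30 and 0 of 39 cells. Sox8 (chr17:25565892-25570686) had 189, 179, 41.3 and 266 CPM with Ccl9, 3.27, 1.15, 0 and 0 CPM without and 0, 0.194, 0.0894 and 0.108 CPM in the other cells. No Sox8 UMI was counted in the 1179 other cells of the iBC donor-derived library, and the level with Ccl9 was at least 1031-fold that of 3 UMIs in their sum. Over all libraries Sox8 was found in 32 of 48 cells with Ccl9, 2 of 170 without and 7 of 5158 others.

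The remaining genes that gave the cells their name separated in the same way, with differences between the animals. Tnfaip2 (chr12:111442469-111455018), a cytoplasmic protein of membrane extensions known from microfold cells, had 1603, 1861, 355 and 1137 CPM with Ccl9, 105, 289.8, 84.7 and 20.5 CPM without and 23.5, 29.7, 9.2 and 6.84 CPM in other cells. Its summed level was therefore higher than in other cells in both classes of every library, and by more where Ccl9 was present. The value without Ccl9 in the primary endogenous library came from 1 cell. Over all libraries a Tnfaip2 UMI was found in 38 of 48 cells with Ccl9, 33 of 170 without and 551 of 5158 others. Ubd, a ubiquitin-like protein induced by cytokines, had 757, 650.2, 165 and 95.7 CPM with Ccl9 and 235, 9.24, 0 and 0 CPM without. In the iBC donor-derived cells with 0 chemokine UMIs it had 28 CPM. H2-M2 (chr17:37480851-37483552), a non-classical MHC class I gene, had 669.8, 219, 8.25 and 0 CPM with Ccl9 and 154, 5.77, 0 and 0 CPM without. In the other cells of the iBC donor-derived library it had 10.1 CPM. It was thus nearly confined to the iBC recipient, with 1 UMI among 7 cells of the primary donor-derived library and 0 UMIs in all classes of the primary endogenous library. Msln (chr17:25748613-25754378), the surface protein mesothelin, had 2594, 4998, 4315 and 4602 CPM with Ccl9, 301, 846, 446 and 855 CPM without and 40.7, 650.3, 637 and 847 CPM in other cells. Its ratio was 63.7-fold (95% interval 58.1 to 69.9) in the iBC donor-derived library but 5.43-fold (95% interval 4.92 to 5.97) in the primary endogenous library, where other cells also expressed it. The iBC donor-derived cells without Ccl9 were also at least 2-fold above the other cells in Msln, Ubd and Tnfaip2, with the lower bound at least 1.5-fold.

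Other genes were also high in the cells with Ccl9 of all 4 libraries. Serpinb1a, an inhibitor of neutrophil proteases, had 3426, 5819, 1122 and 7684 CPM against 40.9, 36.7, 66.4 and 56.1 CPM in other cells. Il4i1, a secreted amino acid oxidase, had 652, 1211, 404 and 839.6 against 6.29, 0.582, 0.804 and 0.701 CPM. Fabp5, a fatty acid binding protein, had 5720.1, 6119.8, 536 and 3242 against 193, 8.47, 8.04 and 7.49 CPM. Pglyrp1, a peptidoglycan recognition protein and known microfold gene, had 7772, 12662, 6246 and 10702 against 1099.8, 1329, 834 and 1079.9 CPM. The lowest of these ratios was that of Pglyrp1 in the iBC donor-derived library, 7.07-fold (95% interval 6.84 to 7.31). In Ccl20 cells without Ccl9, Fabp5 had 275, 3.46, 6.86 and 1.86 CPM and Pglyrp1 2041, 1032, 1091 and 408 CPM, close to or below other cells in the iBC endogenous and primary endogenous libraries.

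Gp2, the bacterial uptake receptor by which mature gut microfold cells are often recognised, did not follow. It had 0 UMIs in all 47 chemokine cells of the iBC donor-derived library, a limit of 3.46 CPM if 3 UMIs are allowed, against 12.6 CPM in the other cells. With Ccl9 it had 431 CPM in 3 of 7 iBC endogenous cells and 42.5 CPM in 1 of 4 primary endogenous cells, where other cells had 184 and 70.6 CPM. The primary donor-derived cells with Ccl9 had 0 UMIs. A Gp2 UMI was found in 4 of 48 cells with Ccl9, 13 of 170 without and 478 of 5158 others.

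**Figure D2:**
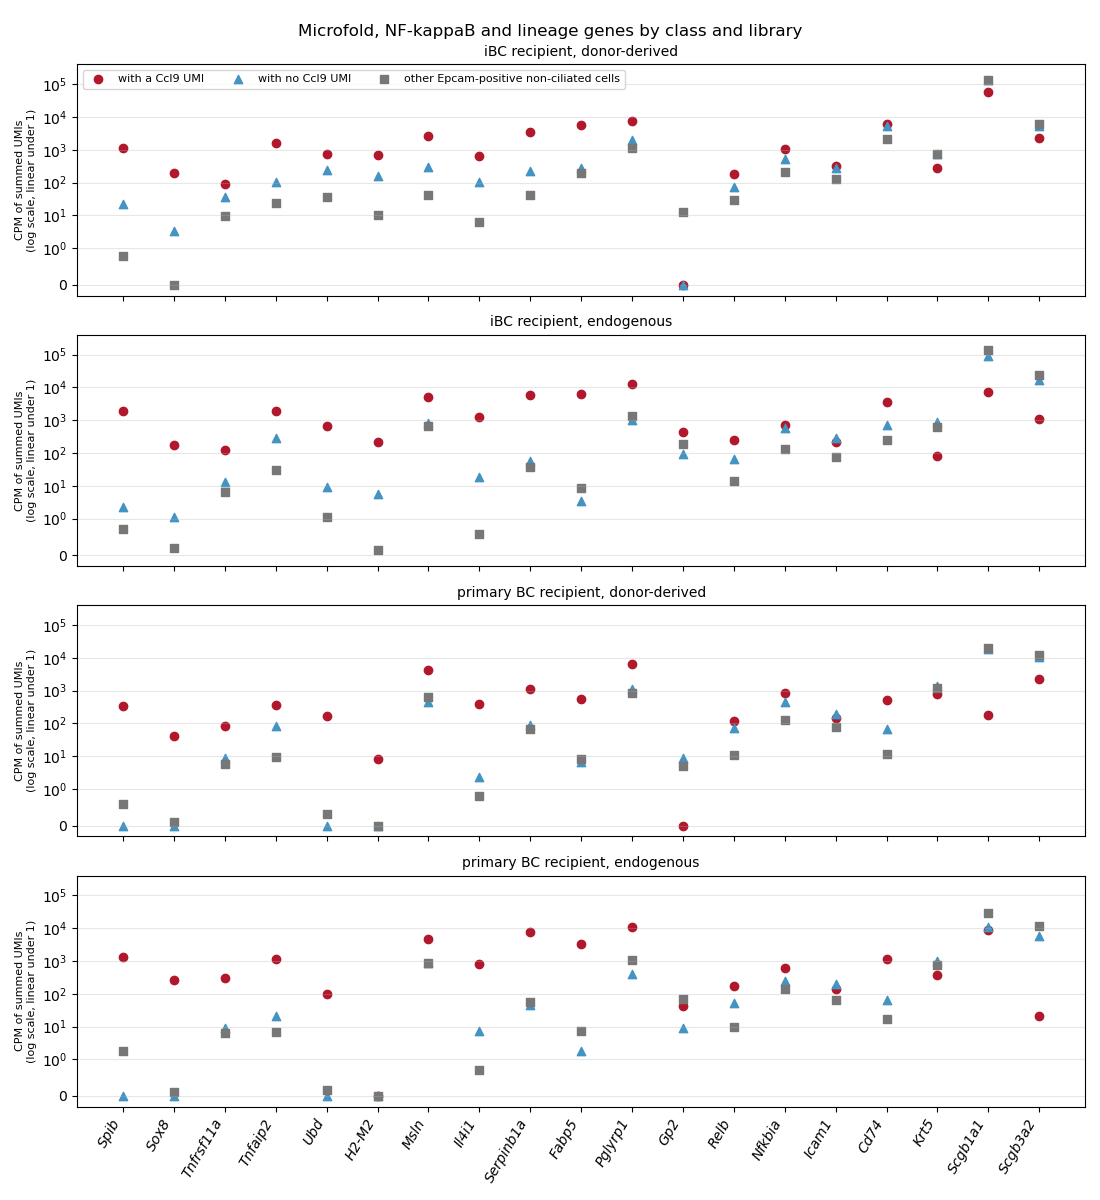
CPM of summed UMIs (vertical axis, log scale, linear under 1) of 19 genes in cells with a Ccl9 UMI (red circles), Ccl20 cells without Ccl9 (blue triangles) and other Epcam-positive non-ciliated cells (grey squares), 1 panel per library. The circles of Spib, Sox8, Il4i1 and Fabp5 stand far above the other symbols in every panel, whereas for Nfkbia and Icam1 both circles and triangles lie above the squares, the triangle of Nfkbia in the primary endogenous library being the nearest to its square.

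Of the RANK pathway, UMIs of the receptor gene and of genes of the NF-kappaB arm were counted in the chemokine cells, and none of the ligand gene. Whether the pathway was active was not tested. Tnfrsf11a, the receptor RANK, had 89.1, 122, 82.5 and 308 CPM with Ccl9, 36, 12.7, 9.15 and 9.32 CPM without and 9.71, 6.66, 5.94 and 6.57 CPM in other cells. The highest value rested on 2 of 4 cells. A Tnfrsf11a UMI was found in 34 of 48 cells with Ccl9, 24 of 170 without and 468 of 5158 others. Tnfsf11, the ligand, had 0 UMIs in chemokine cells and other cells of all 4 libraries, and was found in 1 of the 10 Ptprc-positive cells without Epcam of the iBC endogenous library. Tnfrsf11b, a decoy receptor of the ligand, had 5.34, 56.9, 0 and 21.3 CPM with Ccl9. Relb and Nfkb2, partners in the non-canonical NF-kappaB dimer, had 185, 244, 116 and 170.1 and 109, 97.5, 149 and 138 CPM with Ccl9, 75.2, 65.8, 73.2 and 52.2 and 49.1, 23.1, 20.6 and 35.4 CPM without, and 28.6, 14.3, 10.9 and 9.97 and 17.1, 9.05, 10.9 and 8.19 CPM in other cells. Both passed a 2-fold difference with its lower bound at 1.5-fold in each class of each library, except Nfkb2 without Ccl9 in the primary donor-derived library (1.9-fold (95% interval 0.857 to 3.66)). Map3k14, the kinase of this arm, had 28.5, 48.8, 24.8 and 95.7 CPM with Ccl9 against 9.65, 9.37, 11.5 and 10.3, and the adaptor gene Traf6 35.6, 65, 16.5 and 31.9 against 10.5, 10.0, 10.9 and 10.7. The epithelial factor Ehf had 351, 341, 421 and 287 against 295, 233, 305 and 259 CPM and was little different. Mycl had 78.4, 32.5, 33 and 85 against 38.8, 21.9, 39 and 34.4 CPM, with no common direction, while Atoh8 (5.34, 0, 8.25 and 0 CPM with Ccl9) stayed at a few UMIs and Esrrg had 0 UMIs in the chemokine cells.

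In the iBC donor-derived library, 293 of 3033 genes were higher in the 47 chemokine cells than in the 1179 other cells (9.66%) and 62 were lower (2.04%). A gene counted as different if the sums were at least 2-fold apart with the nearer 95% bound at least 1.5-fold from 1, and genes entered if 1 of the sums reached both 50 CPM and 50 UMIs. Genes that reached this only in the chemokine cells, such as Sox8, Fxyd2 and Lbhd2, could not be lower. The 2 shares therefore do not measure a direction, and shares with the minimum set on the other cells are given with the gene lists. Apart from Spib and Sox8, the 20 highest ratios included Serpinb1a (2299.6 against 40.9 CPM; 56.2-fold (95% interval 51.5 to 61.4)), Il4i1 (458 against 6.29 CPM), Msln (1785 against 40.7 CPM), Tnfaip2 (1075 against 23.5 CPM), H2-M2 (488 against 10.1 CPM) and Fabp5 (3800.0 against 193 CPM). Fxyd2, a regulator of the sodium pump, had 227 against 0.122 CPM, and Hepacam2, an adhesion molecule, 209.9 against 0.916 CPM. Fxyd2 and Hepacam2 were found in 13 cells with Ccl9 each and in 0 of 17 without. Both were also present in iBC endogenous cells with Ccl9 (1333 and 219 CPM), but had 0 UMIs in the 11 cells with Ccl9 of the primary BC recipient. Lbhd2 reached 228, 707, 776 and 712 CPM with Ccl9 against 0.122, 0.194, 0.894 and 0.216 CPM in other cells, and so was shared by all libraries. Fcamr, a receptor for the Fc parts of IgM and IgA, had 137 against 0.916 CPM. Plb1, a brush border phospholipase, had 277 against 8.43 CPM, Plekhs1 145 against 0.305 CPM and Serpina1b, a protease inhibitor, 93.4 against 0.183 CPM. The anti-apoptotic gene Bcl2a1b had 156 against 0.305 CPM. Bcl2a1b, Serpina1b and the H2 genes have near-identical relatives, so their reads can be shared with them.

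**Figure D3:**
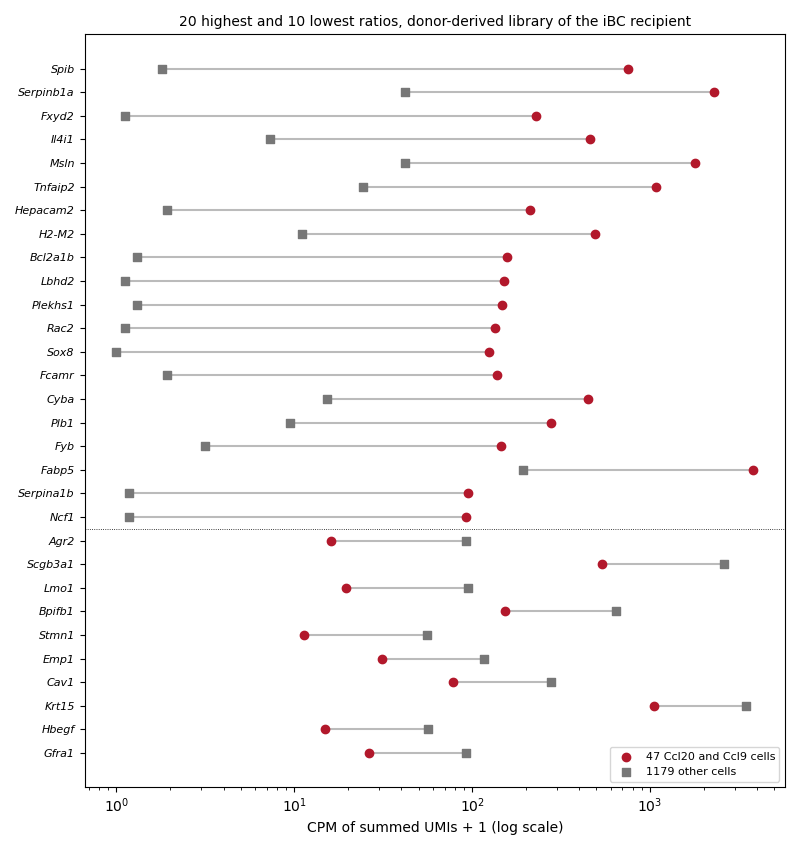
CPM of summed UMIs plus 1 (horizontal axis, log scale) of the 20 highest and 10 lowest ratios in the 47 chemokine cells (red circles) and 1179 other cells (grey squares) of the iBC donor-derived library. The gaps above the dotted line are much wider than those below it, with Spib at 748.5 against 0.794 CPM and Krt15 at 1055 against 3467 CPM.

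The genes Rac2, Ncf1, Cyba, Fyb and Aif1, best known from leukocytes, were high in cells with Ccl9. Rac2, a GTPase, had 203, 244, 24.8 and 63.8 CPM against 0.122, 0.323, 0.223 and 1.78 CPM in other cells, and its 24.8 CPM correspond to 3 UMIs. Ncf1 and Cyba, parts of the phagocyte NADPH oxidase, had 141, 325, 99 and 244 and 679, 1739, 553 and 829 CPM against 0.183, 0.259, 0.0447 and 0 and 14.4, 187, 80.8 and 136. The adaptor gene Fyb had 223, 89.4, 0 and 0 CPM, and so was found with Ccl9 in the iBC recipient and not in the other animal. Aif1, which gut microfold cells also express, had 73, 73.1, 0 and 31.9 CPM, of which the last corresponds to 3 UMIs. Beside this, 18 of 23 leukocyte markers had 0 UMIs in the 47 iBC donor-derived cells, among them Tyrobp, Fcer1g, Laptm5, Cd52 and Csf1r. That library held 0 Ptprc-positive barcodes without Epcam. The summed leukocyte markers other than Lyz2 had 242, 390.1, 157 and 159 CPM with Ccl9, 3.27, 8.08, 4.58 and 1.86 CPM without, and 3.97, 4.14, 8.67 and 13.4 CPM in other cells. Of the 23 markers 15 to 18 were at 0 in the chemokine cells of each library, with Fcer1g at 0 in 3 of them. Lyz2 had 5111, 691, 1509.9 and 8577 CPM with Ccl9, and epithelial cells without the chemokines also carried it (240.2, 4284, 3625 and 6689 CPM). On the list of fibroblast, endothelial and smooth muscle genes, Myh11 had 57, 146, 0 and 31.9 CPM with Ccl9. Its neighbour on that list, Acta2, had 0 UMIs in the chemokine cells. Of the same list, Dcn had UMIs in the chemokine cells of every library. Vwf had UMIs in those of the iBC endogenous and primary donor-derived libraries, and Pecam1 in those of the iBC endogenous library.

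Gene lists showed how the cells with and without Ccl9 of the iBC donor-derived library differed from the other cells. A list gene was measured if it reached 20 CPM in the other cells, so that the same genes stand for both classes and none entered by being high in the chemokine cells, a minimum chosen after the results had been seen. Of 5770 such genes, 5.74% were higher and 3.78% lower with Ccl9 (median log2 ratio -0.03), and 0.971% were higher and 0.711% lower without (-0.02). Microfold effector genes were higher in 9 of 10 measured cases with Ccl9, with a median log2 ratio of 2.61, and in 1 of the same 10 without, with a median of 0.83. The single one without Ccl9 was Tnfaip2. Clu, the chaperone clusterin, had 5321 and 2319 CPM against 1168, and Ctsh, a lysosomal protease, 1149 and 448 against 249. NF-kappaB targets were higher in 5 of 14 cases (median 0.55) with Ccl9 and 4 of 14 (0.60) without, and none was lower in either class. Of the 13 microfold regulators only 3 reached the minimum in the other cells, and Relb was the 1 higher among them in both classes. With 20 CPM in either sum the shares over all genes were 10.4% higher and 3.32% lower of 6566 genes with Ccl9, and 1.5% and 0.653% of 6279 without. The counts were then 13 of 14 effectors with Ccl9 and 1 of 10 without, and 7 of 9 regulators and 4 of 6. Of these 14 effectors 4, and of these 9 regulators 6, passed the minimum only in the cells with Ccl9, as 3 of the 6 regulators did without it, so that those genes had to be higher.

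Antigen presentation genes were raised in both classes of that library. Over genes with 20 CPM in the other cells, MHC class II genes were higher in 6 of 7 cases with Ccl9 (median 1.5) and 5 of 7 without (1.32). Cd74, the invariant chain, had 6199 and 5413 CPM against 2063, and H2-Aa 1356 and 1034 against 419. In the primary BC recipient Cd74 was also higher, with 528 and 1158 CPM with Ccl9 against 12 and 17.5, but H2-Aa had only 0 and 42.5 CPM. MHC class I genes were higher in 13 of 15 cases with Ccl9 (median 1.49), such as B2m with 3809 against 1634 CPM, and in 4 of 15 without (0.71). Interferon-stimulated genes were higher in 9 of 17 cases with Ccl9 (median 1.12) and 3 of 17 without (0.40). The chemokine Cxcl9, an interferon-gamma target, had 337 CPM in 9 of 30 cells with Ccl9 against 12.3, and Cxcl10 269 CPM in 7 of 30 against 41.3. In the primary BC recipient Cxcl9 and Cxcl10 had 0 UMIs in the chemokine cells. Among surface proteins anchored by a lipid, Psca had 4756 CPM with Ccl9 against 411 in the iBC donor-derived library and 3365 against 32 in the iBC endogenous library. It had 0 UMIs in the chemokine cells of the primary BC recipient.

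**Figure D4:**
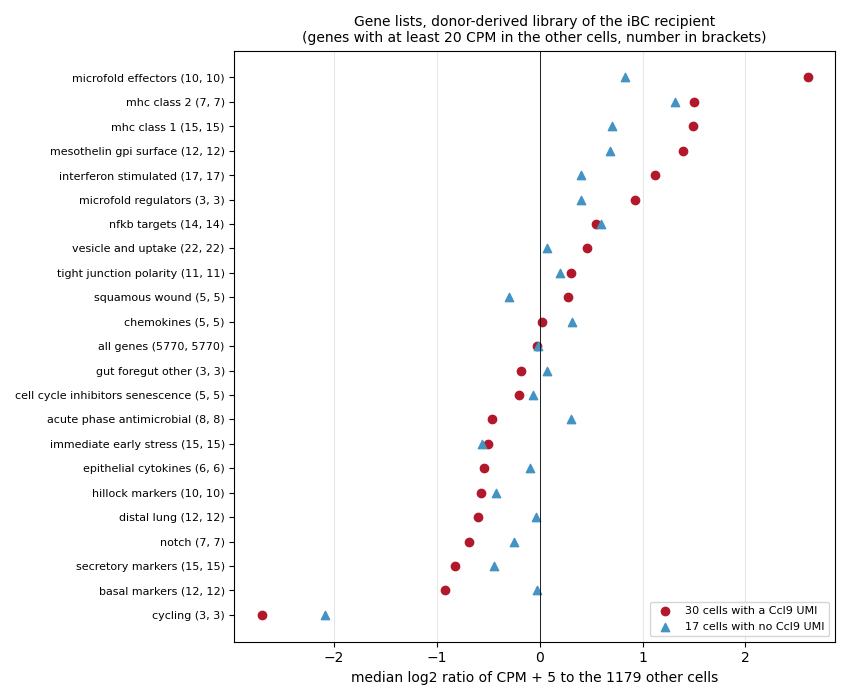
Median log2 ratio (CPM plus 5, horizontal axis) of each gene list (vertical axis) to the 1179 other cells of the iBC donor-derived library, for the 30 cells with Ccl9 (red circles) and the 17 without (blue triangles), over genes with at least 20 CPM in the other cells (their number in brackets). Microfold effectors reach 2.61 and 0.83, NF-kappaB targets 0.55 and 0.60, and all genes -0.03 and -0.02.

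The Ccl20 cells without Ccl9 were described best in the iBC endogenous library, where they were 84 of 91. In the 91 cells together, 113 of 2645 genes were higher (4.27%) and 30 lower (1.13%) than in the 1317 other cells. Here too, genes that reached the minimum only in the chemokine cells could not be lower. The median log2 ratio of all tested genes was 0.21 here. Scaling by the median of ratios brought it to 0.06 with 82 higher and 47 lower, and a mean over cells of UMIs per 10000 gave 77 and 49, so the share of higher genes among the called fell from 79.0% to 63.6% and 61.1%. The highest ratios were Serpinb1a (775 against 36.7 CPM) and Tnfaip2 (485 against 29.7 CPM), of which the first rested on the 7 cells with Ccl9 (58.9 CPM in the 84). They were followed by the protease inhibitor gene Serpina3g (79.9 against 2.84 CPM), by Clca3a2 (181 against 18.8 CPM) and by the adhesion molecule Vcam1 (66.7 against 5.43 CPM). Of the 5071 genes with 20 CPM in the other cells, 1.18% were higher and 1.12% lower in the 84 cells without Ccl9 (median 0.10). Among them NF-kappaB targets were higher in 3 of 14 cases (median 0.75), namely Nfkbia, Icam1 and Irf1, MHC class II genes in 4 of 4 (1.48) and microfold effectors in 1 of 10 (0.08). Of the 32 listed chemokine genes 3 reached the minimum, of which Cxcl16 and Cx3cl1 were higher. Nfkbia, the inhibitor that NF-kappaB itself induces, was 4.14-fold (95% interval 3.74 to 4.57) higher, and the adhesion molecule Icam1 3.64-fold (95% interval 3.16 to 4.19). Cxcl10, under the minimum in the other cells, had 237 CPM against 0.388, which came from 4 of the 84 cells.

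In the primary BC recipient 1 or 2 NF-kappaB targets were higher without Ccl9. Of 12 with 20 CPM in the other cells, Nfkbia and Icam1 were higher in the donor-derived library (median 0.42), beside 0.259% higher and 0.552% lower of 5794 genes. In the endogenous library Icam1 was the 1 higher of 12 (median 0.38), beside 0.519% higher and 1.84% lower of 5591 genes. Nfkbia had 529.9, 562, 444 and 252 CPM without Ccl9, 1088, 699, 842 and 627 CPM with it and 214, 136, 125 and 139 CPM in other cells. Its smallest ratio without Ccl9 was 1.81-fold (95% interval 1.51 to 2.15), in the primary endogenous library, under the 2-fold threshold. Icam1 had 281, 277, 189.9 and 194 CPM without Ccl9, 324, 219, 149 and 138 CPM with it and 128, 76.1, 79.9 and 63.9 CPM in other cells. In contrast to Spib it was at a similar level in both classes. Vcam1 had 32.7, 47.3, 22.9 and 28 CPM without Ccl9, 162, 203, 41.3 and 149 CPM with it and 2.75, 5.43, 1.52 and 6.25 CPM in other cells, and the chemokine gene Cxcl16 had 128, 103, 41.2 and 63.4, 192, 406, 289 and 244 and 49.2, 27.9, 22.8 and 19.8 CPM. Irf1, a transcription factor downstream of both NF-kappaB and interferon, had 137, 99.3, 48 and 48.4, 146, 65, 33 and 42.5 and 55.8, 27.9, 26.4 and 24.8 CPM, and without Ccl9 it was under 2-fold in both primary libraries. Sod2, another target, did not move with them and had 134, 155, 174 and 155 CPM without Ccl9 against 152, 118, 166 and 145.

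Airway lineage genes were lower in part of the cells, and which ones differed between the classes and libraries. Krt5, the keratin of basal cells, had 283, 81.3, 792 and 372 CPM with Ccl9, 752, 904, 1341 and 1038 CPM without and 751, 611, 1180.0 and 780.3 CPM in other cells, and a Krt5 UMI was found in 19 of 48, 141 of 170 and 3412 of 5158 cells. Scgb3a2, a secretoglobin of secretory cells, had 2225, 1122, 2203 and 21.3 CPM with Ccl9, 5449, 17046, 10555 and 5983 without and 6289, 23817, 12387 and 12042 in other cells. The club cell secretoglobin gene Scgb1a1 had 56319, 7371, 182 and 8545 CPM with Ccl9 against 132151, 140807, 20293 and 28754, and was at 135019, 91700.5, 18279 and 10856 without. In the iBC donor-derived library basal markers were lower in 5 of 12 cases with Ccl9 (median -0.92) and in 1 of 12 without (-0.03), and secretory markers in 6 of 15 (-0.83) and 4 of 15 (-0.44). In the Ccl20 cells without Ccl9 of the primary endogenous library 10 of 16 secretory markers (median -1.13) and 6 of 10 hillock markers, genes of squamous-like airway cells (-1.26), were lower. Those of the primary donor-derived library had 6 of 10 hillock markers lower (-1.43) and 0 of 16 secretory markers. In the iBC donor-derived cells with Ccl9, 2 of 10 hillock markers were higher, Ly6d and S100a11, and 3 were lower (-0.57). Summed hillock markers were higher with Ccl9 in every library, at 14750, 12556.5, 11733 and 8896 against 7108, 3330, 5406 and 4613 CPM in other cells. Krt14, another basal keratin, had 645, 211, 2888 and 138 CPM with Ccl9 against 774, 138, 429.8 and 172, and was higher in the primary donor-derived library. Among the 10 lowest ratios of the 47 cells were the mucin chaperone gene Agr2 (15 against 91.9 CPM, 6.13-fold (95% interval 3.57 to 11.5) lower), Scgb3a1 (535 against 2593 CPM), the secreted protein gene Bpifb1 (152 against 643 CPM), Krt15 (1055 against 3467 CPM), the caveolae gene Cav1 (77.3 against 275 CPM) and the growth factor gene Hbegf (13.8 against 55.2 CPM). Lmo1, Stmn1, Emp1 and Gfra1 completed them, at 3.62- to 5.31-fold lower. Hes1, a Notch target, had 130.0, 8.13, 231 and 21.3 CPM with Ccl9 against 353, 367, 416 and 380.3, and without Ccl9 it had 105, 279, 295 and 249.7. In the iBC endogenous library the 91 cells were lower in Muc5b (259.8 against 1155 CPM) and Ltf (1002 against 3888 CPM), products of secretory and gland cells. They were also lower in Lgals3 (82.9 against 335 CPM), a gene of the hillock list. The 84 without Ccl9 were higher in 3 of 12 basal markers, Trp63, Pdpn and Snai2 (list median 0.59).

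Markers of the rare airway types were few in the chemokine cells. Of 12 tuft cell markers 8 had 0 UMIs in the 47 iBC donor-derived cells, and their sum was 99.2 against 55.8 CPM, nearly all of it Dclk1 (94.6 against 48.1 CPM). Calcb, a calcitonin-related peptide gene listed as a neuroendocrine marker, had 23.2, 983, 66 and 10.6 CPM with Ccl9 and was found in 4, 5, 4 and 1 cells, against 0, 1.36, 7.33 and 2.53 CPM in other cells and 0 UMIs without Ccl9. Cftr, the chloride channel of ionocytes, had 30.3, 106, 0 and 0 CPM with Ccl9 against 6.96, 1.23, 5.54 and 5.82. Cldn18, a tight junction gene of stomach and distal lung, had 349 and 186 CPM against 23 in the iBC donor-derived library and 0 UMIs in all classes of the other 3 libraries.

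In the iBC recipient most cells with Ccl9 lay in 1 cluster when the genes of the selection were removed from the variable genes. Clustering the 1226 iBC donor-derived cells gave 14 clusters, and 1 of them, with 104 cells (8.48%), held 32 of the 47 chemokine cells (68.1%). It held 25 of the 30 cells with Ccl9 and 7 of the 17 without. Its 72 other cells had 1.62 CPM of Spib and 0 of Sox8, against 1073 and 182 CPM in the 32, but they had 447 CPM of Fabp5 and 2299.5 of Pglyrp1, above the 172 and 1002 CPM of the cells outside. The cluster with most chemokine cells held 6 of 7 with Ccl9 and 35 of 84 without in the iBC endogenous library, but 0 of 7 and 19 of 30 in the primary donor-derived and 0 of 4 and 15 of 39 in the primary endogenous library. Neighbours were all cells joined to a cell, in either direction, in the graph built with 15 nearest neighbours. Among them chemokine cells made up on average 72.2% around cells with Ccl9, 17.3% around those without and 1.83% around other cells. The same shares were 47.7%, 30.3% and 4.50% in the iBC endogenous library, 43.9%, 7.36% and 1.85% in the primary donor-derived library, and 41.3%, 14.6% and 3.53% in the primary endogenous library. Since the clusters were built from the same cells, these values describe and do not test.

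**Figure D5:**
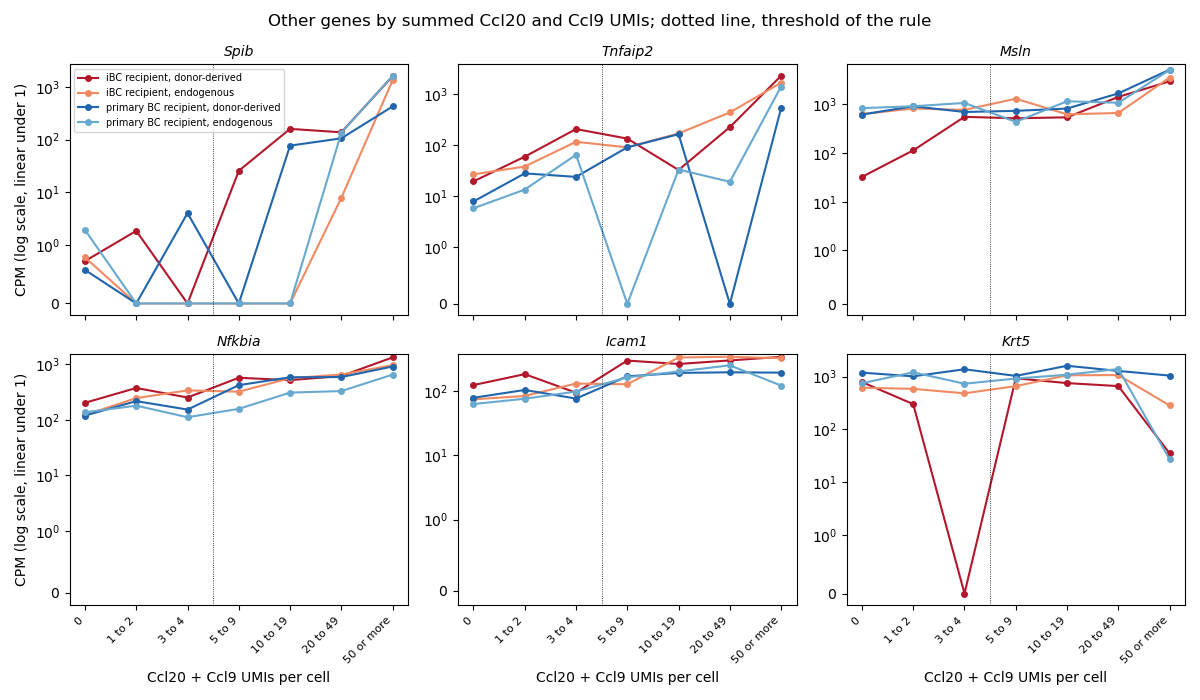
CPM of summed UMIs (vertical axis, log scale, linear under 1) of 6 genes in Epcam-positive non-ciliated cells grouped by their Ccl20 and Ccl9 UMIs, 1 line per library, with a dotted line at the threshold of the selection. Spib reaches 425 to 1625 CPM in the highest band of every library, Nfkbia is higher in the highest band than at 0 in every library with dips in between, and single points rest on as few as 3 cells.

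Spib and Tnfaip2 were concentrated in the cells with the most chemokine UMIs. In cells with 50 or more, of which there were 18, 11, 3 and 3, Spib had 1592, 1336, 425 and 1625 CPM, whereas in those with 5 to 9 it had 25.5, 0, 0 and 0 CPM. Of the cells with 50 or more, 18, 5, 3 and 3 had Ccl9, so these bands overlap with the division by Ccl9. Nfkbia differed less between the same bands, with 1325, 960.2, 908 and 650 CPM against 570.4, 320.2, 419.9 and 157. Cells with more chemokine UMIs were deeper, with median totals of 20226, 14799, 17014 and 26362 UMIs in the highest band and 16022, 9532, 12316.5 and 11562 in the lowest. Each cell was therefore also thinned to 2500 UMIs. In the iBC donor-derived library a Spib UMI was then left in 21 of 30 cells with Ccl9 (70.0%, 95% interval 50.6 to 85.3), 2 of 17 without (11.8%), 4 of 1179 other cells (0.339%) and 1 of 264 ciliated cells (0.379%), which should lack it. A second random thinning left it in 20 of 30, 1 of 17, 2 of 1179 and 0 of 264 cells, so the small shares rest on single UMIs. The unthinned shares were 23 of 30, 3 of 17 and 12 of 1179. Msln was left in 27 of 30, 7 of 17 and 52 of 1179 cells, and in 1 of 264 ciliated cells. Nfkbia was left in 26 of 30, 11 of 17, 399 of 1179 and 119 of 264 cells, so it was common in ciliated cells too.

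Within the 47 iBC donor-derived cells, the genes most like the summed chemokines were ranked by Spearman's rho over 7119 genes, as a description. They were Fabp5 (0.82), Pglyrp1 (0.79), Sox8 (0.78), Msln (0.75), Fcamr (0.75), Tnfaip2 (0.74), Rab32 (0.74), Serpinb6a (0.73), Sec11c (0.72) and Spib (0.72). The points share 1 library and differ in depth. Rab32, a GTPase of lysosome-related organelles, had 134, 195, 49.5 and 74.4 CPM with Ccl9 against 10.6, 10.1, 5.81 and 4.47 in other cells.

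The receptors of the chemokines were looked for in the same libraries. Ccr6, the receptor of Ccl20, and Ccr1, a receptor of Ccl9, had 0 UMIs in all 218 chemokine cells. Ccr1 was found in 15 of 52 Ptprc-positive cells without Epcam of the primary endogenous library, in 2 of 10 of the iBC endogenous library and in the single such cell of the primary donor-derived library. Ccr6 was found in 1 of those 10. In the primary endogenous library 32 of these 52 leukocytes carried Ccl9 and 0 carried Ccl20. Of the 247 barcodes with at least 5 chemokine UMIs, 20 had a Ptprc UMI, of which 18 were in that library, and were not among the 218.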

How the data were processed

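UMI counts per gene and barcode were used as deposited by the authors. The build was GRCm38 and the tools named were Seurat, STARsolo and Cell Ranger, per the submitters' processing notes. Which tool made the counts, and whether it separated strands, is not given in the sources used here. The cells and gene lists were chosen with earlier results of these data known.

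For each class of cells within a library the UMIs were added up and expressed as CPM. Ratios carry exact conditional-binomial 95% intervals, and log2 medians of lists use a pseudocount of 5 CPM. The named genes were the 20 highest and 10 lowest log2 ratios past the thresholds with a UMI in at least 20% of cells of the higher class, leaving out genes of the selection, reporters, sex-linked genes and genes without a symbol. All markers, all microfold regulators and up to 4 abundant genes of each other list were added, and further genes were named after their values were seen. The lists held 486 genes, of which 3 were unmatched and not used here. Clusters were made with scanpy 1.11.5 and leidenalg 0.10.2 at resolution 1 from 2000 variable genes and 30 components. Doublets were called by Scrublet and kept in the main analysis. Gene positions came from GENCODE and promoters from RefSeq (GRCm38.p6). The calling rule was tried on simulated data with 200 changed genes, and that trial is not used here as support for the calls. The intervals leave out spread between cells. In the iBC donor-derived chemokine cells, 1 cell held 42.6% of the Fxyd2 UMIs and 1 cell 35.2% of the Fyb UMIs. The alternatives tried are described with their effects in the closing section.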

Additional observations from a re-analysis of the deposited data

Results flagged for a closer look

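A second reporter feature, mCherry, was listed in the count tables but not used in the comparisons. It had 214 UMIs in the iBC donor-derived library and 0 in each of the other 3 libraries. These UMIs lay in 195 of 1596 barcodes, including 5 of the 47 chemokine cells and 148 of the 1179 other cells. The labels name GFP as the sorted reporter and give no use for mCherry.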

How the results depend on the processing

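Requiring 10 chemokine UMIs left 19 and 28 cells in the primary donor-derived and endogenous libraries. Requiring both chemokines left 28, 7, 7 and 4 cells, and applying the rule after thinning 23, 36, 6 and 8. In the iBC donor-derived library, 98 genes were higher and 34 lower after thinning to 2500 UMIs, and 479 and 114 with a minimum of 20 CPM and 20 UMIs. Lower genes numbered 149 with both chemokines required, 113 with a mean over cells and 188 against other cells with Krt5. Division by Ccl9, added after the data were seen, gave 131 lower genes with Ccl9, and 33 higher and 25 lower genes without. In the iBC endogenous library, higher genes numbered 74 at 3 chemokine UMIs, 252 with Ccl9 or with both chemokines, 31 after thinning, 228 with the lower minimum and 63 without Ccl9. Lower genes there numbered 56 at 10 UMIs, 64 at 5 UMIs per 10000, 109 with Ccl9 or with both chemokines, 47 with median-of-ratios scaling, 49 with a mean over cells and 50 with the lower minimum.

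The median of microfold regulators in the iBC donor-derived library was 2.07, and 1.54 with a pseudocount of 20 CPM, 0.93 with no filter, 0.71 over the 3 genes with 20 CPM in the other cells and 1.27 without Ccl9. That of microfold effectors was 2.48, and 2.98 with both chemokines, 2.7 after thinning, 3.23 against cells with Krt5, 2.91 with Ccl9, 0.83 without and 2.21 with 20 CPM in the other cells. That of NF-kappaB targets fell from 1.04 to 0.53 with 20 CPM in the other cells, a minimum added after the data were seen. Medians of other lists changed sign in 8 cases. In the iBC donor-derived library acute phase genes fell to -0.21 after thinning, and secretory markers rose to 0.43 against cells with Krt5. In the iBC endogenous library lipid-anchored surface genes were at -0.031 without Ccl9. There, against cells with Krt5, squamous genes were at -0.0062, basal markers at -0.50 and secretory markers at 0.60, and basal markers were at -0.48 with Ccl9 or with both chemokines. The leading cluster held 20 to 28 of the 30 cells with Ccl9 under other clusterings. The causes were not tested beyond the changed choice of cells or genes itself.

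No paired analysis was possible because each group held 1 library, which concerns the comparisons between groups. A fit of chemokine against other cells paired over the 4 libraries of 2 animals was not run, since those cells were chosen on the same counts. The 11 cells with Ccl9 of the primary BC recipient limit what can be said of it, and an absent UMI does not show an absent transcript.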
